A study of Mus musculus with 6 samples.

Results

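The genes described here are the 36 aminoacyl-tRNA synthetase genes of the mouse that the deposited table holds under the chosen names, 20 for cytosolic enzymes and 16 for mitochondrial enzymes, out of 14883 genes in the table. The rule uses gene names and no measured value, though it was set with earlier results of these data known. Symbols ending in 2 stand for mitochondrial enzymes and the others for cytosolic ones, except that Gars and Kars each supply both compartments. All 36 had enough counts to be tested. Symbols are those of RefSeq (GRCm38.p6).

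RNA came from B16F10luc2, a mouse melanoma cell line, grown in DMEM with 10% FBS on plates with an elastic floor. The 3 static samples were left unstretched, and the 3 stretched samples were elongated by 15% along both axes of the plane, 15 times a minute, for 24 h. Both groups were kept at 37 °C in the same kind of plate, and no other treatment is labelled. Nothing in the labels says that replicates came from independent cultures, and the p-values therefore reflect sample-to-sample spread that could be technical. Libraries held 19469286 to 36351400 counts. The 7 melanocyte lineage markers, Mitf, Sox10, Dct, Tyr, Tyrp1, Pmel and Mlana, summed to 22409.8 to 24790.5 CPM (counts per 1000000, with library sizes scaled by TMM) in static and 19863 to 20454 CPM in stretched libraries. Fibroblast markers summed to 13.0 to 17.9 CPM in static and 15.7 to 17.2 CPM in stretched libraries. Cd68, Cdh1 and Pecam1, which mark leukocytes, epithelium and endothelium, lay at 1.01 to 1.33, 0.349 to 0.770 and 0.266 to 0.589 CPM. The other leukocyte, epithelial and endothelial markers looked for had no row in the table. The sum is mostly Tyrp1, Dct and Pmel, which were called lower (log2 -0.31, -0.09 and -0.29), while Mitf was called higher (log2 0.37) and Sox10, Tyr and Mlana were not called. The part of these markers in the results below was not tested. In a bulk sample fewer cells of a type and less RNA per cell cannot be told apart.

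An aminoacyl-tRNA synthetase joins an amino acid to its tRNA and so sets which amino acid each codon calls for. Translation in the cytosol and translation in mitochondria use separate tRNAs, and most amino acids have a separate nuclear gene for the enzyme of each compartment. Many cytosolic synthetase genes are known targets of ATF4, a transcription factor made when amino acids run short or translation initiation is held back. ATF4 binds DNA together with C/EBP proteins at a site whose letters can be read as TGATGNAA on either strand.

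These letters stood near an annotated transcript start of several synthetase genes, and the sequences are shown because all of these genes are cytosolic and were lower under stretch. Promoters in RefSeq (GRCm38.p6), 250 bases before to 50 after a transcript start, were held for 13 of 20 cytosolic and 14 of 16 mitochondrial members. Cars, Hars, Lars, Nars, Rars, Vars, Wars, Hars2 and Pars2 had no entry. Capitals mark TGATGNAA on either strand. The first 3 windows are the 150 bases that end just before the start, and the last 2 are 30 bases around a match that lies after it. Aars (chr8:111033692-111033841, plus strand), Gars (chr6:55037851-55038000, plus strand), Tars (chr15:11399659-11399808, minus strand), Iars (chr13:49682126-49682155, plus strand) and Yars (chr4:129189895-129189924, plus strand) are printed 5′ to 3′ along the gene. The starts used for Aars and Yars lie inside the gene spans of the same annotation, and those for Gars, Tars and Iars at their edge.
Aars: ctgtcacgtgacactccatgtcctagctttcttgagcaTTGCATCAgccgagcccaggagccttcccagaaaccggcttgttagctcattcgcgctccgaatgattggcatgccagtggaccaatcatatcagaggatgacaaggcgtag
Gars: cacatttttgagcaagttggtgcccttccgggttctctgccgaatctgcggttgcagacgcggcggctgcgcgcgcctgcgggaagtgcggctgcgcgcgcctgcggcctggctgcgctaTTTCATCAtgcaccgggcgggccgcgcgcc
Tars: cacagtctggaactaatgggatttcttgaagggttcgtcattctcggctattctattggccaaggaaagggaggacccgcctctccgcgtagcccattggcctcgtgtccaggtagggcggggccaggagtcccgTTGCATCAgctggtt
Iars: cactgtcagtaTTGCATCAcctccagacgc
Yars: acgagctcagcTGATGCAAcccgacgggac

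Counted from base 1 at the start, with negative positions before it, the match lay at -112 to -105 in Aars, -30 to -23 in Gars, -15 to -8 in Tars, 8 to 15 in Iars and 4 to 11 in Yars. Aars held another match, TTTCATCA, at 10 to 17. The form TGATGCAA, which is 1 case of TGATGNAA, was present in Aars, Tars, Iars and Yars, and Gars had TTTCATCA only. Of the 13 cytosolic members called lower under stretch, 7 had a promoter entry. TGATGNAA stood in 5 of these 7 and was absent from Sars and Eprs. The lower genes Cars, Lars, Nars, Rars, Vars and Wars could not be read, against only Hars among the other cytosolic members. None of the 6 other cytosolic members with an entry and none of the 14 mitochondrial ones held TGATGNAA. The letters were found in 2.65% of 9892 tested genes with an entry and in 4.51% of all 27025 genes of the promoter table, and the form TGATGCAA in 0.687% and 1.03%. A match in these windows describes the letters only.

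Stretched cells had lower mRNA levels of most cytosolic synthetases, and 10 of the 16 mitochondrial ones were not called. Of the 20 cytosolic members, 13 were lower and 2 higher (quasi-likelihood test of edgeR, Benjamini-Hochberg adjusted p below 0.05), and 5 were not called. Of the 16 mitochondrial members, 1 was lower, 5 were higher and 10 were not called. Standard errors (SE) were derived from the test, as the absolute log2 fold change divided by the square root of its F statistic. Most mitochondrial members had lower counts and larger SE than the cytosolic ones, so a change of a given size was called less readily. For example, Nars2 at a log2 fold change of 0.19 (SE 0.076) was not called, while Hars at 0.10 (SE 0.039) was. Over all 12377 tested genes 25.9% were called lower and 24.9% higher. Against these, 65% of the cytosolic and 6.25% of the mitochondrial members were lower, and 10% and 31.2% were higher. The share of mitochondrial members called higher is near that of all genes. The median log2 fold change, stretch over static, was -0.28 for the cytosolic and 0.11 for the mitochondrial members, against 0.0038 for all tested genes. Leaving out Gars and Kars, which serve both compartments, 12 of 18 cytosolic members were lower and 2 higher, with the same median of -0.28.

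**Figure D1:**
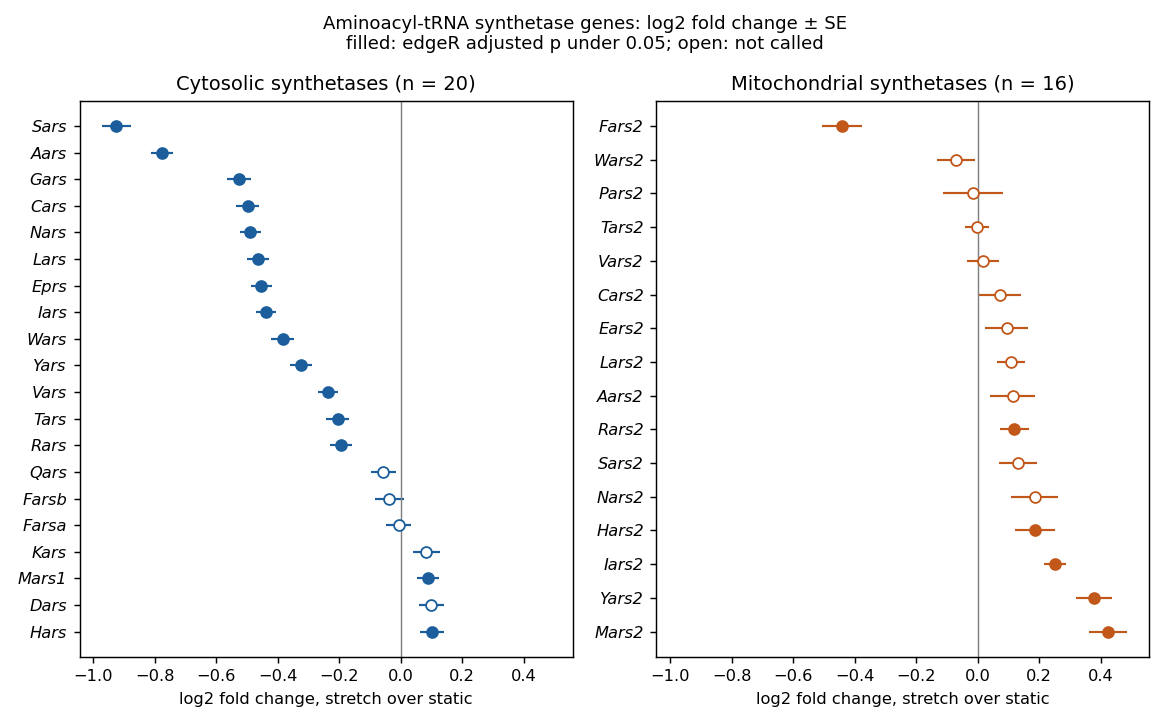
Log2 fold change (stretch over static, horizontal axis) of each cytosolic (left) and mitochondrial (right) synthetase gene, with bars for ± 1 SE; filled points had an edgeR adjusted p under 0.05. Among cytosolic genes values run from -0.92 (Sars) to 0.10 (Hars), and among mitochondrial genes from -0.44 (Fars2) to 0.42 (Mars2).

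Summed over the 20 cytosolic genes, the level was 6398, 6582 and 6218 CPM in static and 4701, 4794 and 4804 CPM in stretched libraries, or 1.34-fold lower. The 16 mitochondrial genes summed to 439.8, 427 and 441 CPM in static and 477, 478 and 473 CPM in stretched libraries, or 1.09-fold higher. In both sums the stretched libraries lay apart from the static ones, in opposite directions. The ratio of the sums fell from 14.7 ± 0.669 to 10.0 ± 0.151 (SD, n = 3 per group).

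**Figure D2:**
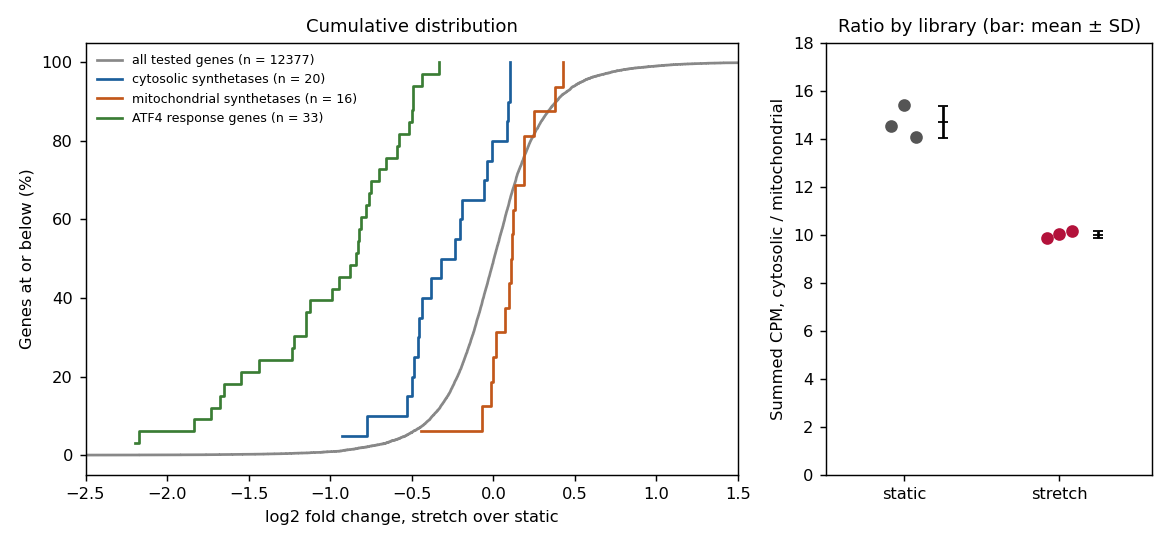
Left, the percentage of genes at or below each log2 fold change (stretch over static) for all 12377 tested genes, 20 cytosolic synthetases, 16 mitochondrial synthetases and 33 other genes of the ATF4 response. Right, the ratio of summed CPM of cytosolic to mitochondrial synthetases in each library with mean ± SD; static libraries lie at 14.1 to 15.4 and stretched ones at 9.85 to 10.1.

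Sars and Aars, the seryl and alanyl enzymes, had the largest falls. Sars (Entrez Gene 20226; chromosome 3, 108424864 to 108445259 in GRCm38) was at 663, 723 and 631 CPM in static and 353, 342 and 367 CPM in stretched libraries. It was 1.90-fold lower, with a change of -0.92 on the log2 scale (SE 0.047, adjusted p = 1.22e-09). Every stretched library lay below every static one by a wide gap, and 1.13% of all tested genes had a more negative fold change. Aars (Entrez Gene 234734; chromosome 8, 111027778 to 111055569) was at 827, 849.6 and 799 CPM in static and 472, 489.7 and 483 CPM in stretched libraries, 1.71-fold lower (log2 -0.78, SE 0.035, adjusted p = 4.30e-10). Its groups did not overlap either. The span of the Aars gene shares 3974 bases with that of Ddx19b, which had a log2 fold change of 0.22 at a mean of 32.6 CPM, and whether counting used strand is not stated.

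Gars, Cars, Nars and Lars followed. Gars, the glycyl enzyme that also serves mitochondria, was at 869.9, 885 and 826 CPM in static and 579, 620.3 and 592 CPM in stretched libraries (log2 -0.53, SE 0.039, adjusted p = 5.08e-08). Cars, the cysteinyl enzyme, went from 187 ± 3.63 to 132 ± 3.87 CPM, with single libraries at 189.6, 188 and 183 against 129.6, 137 and 131 CPM. All stretched values of both genes lay below all static ones. Nars, the asparaginyl enzyme, was at 470.0, 469.9 and 455 CPM in static and 326, 333 and 334 CPM in stretched libraries. Lars, the leucyl enzyme, which is also known as a leucine sensor upstream of mTORC1, was at 184, 182 and 177 CPM against 129, 134 and 131 CPM. Their log2 fold changes were -0.50 for Cars, -0.49 for Nars and -0.46 for Lars, with adjusted p values of 5.72e-08, 2.86e-08 and 8.20e-08.

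**Figure D3:**
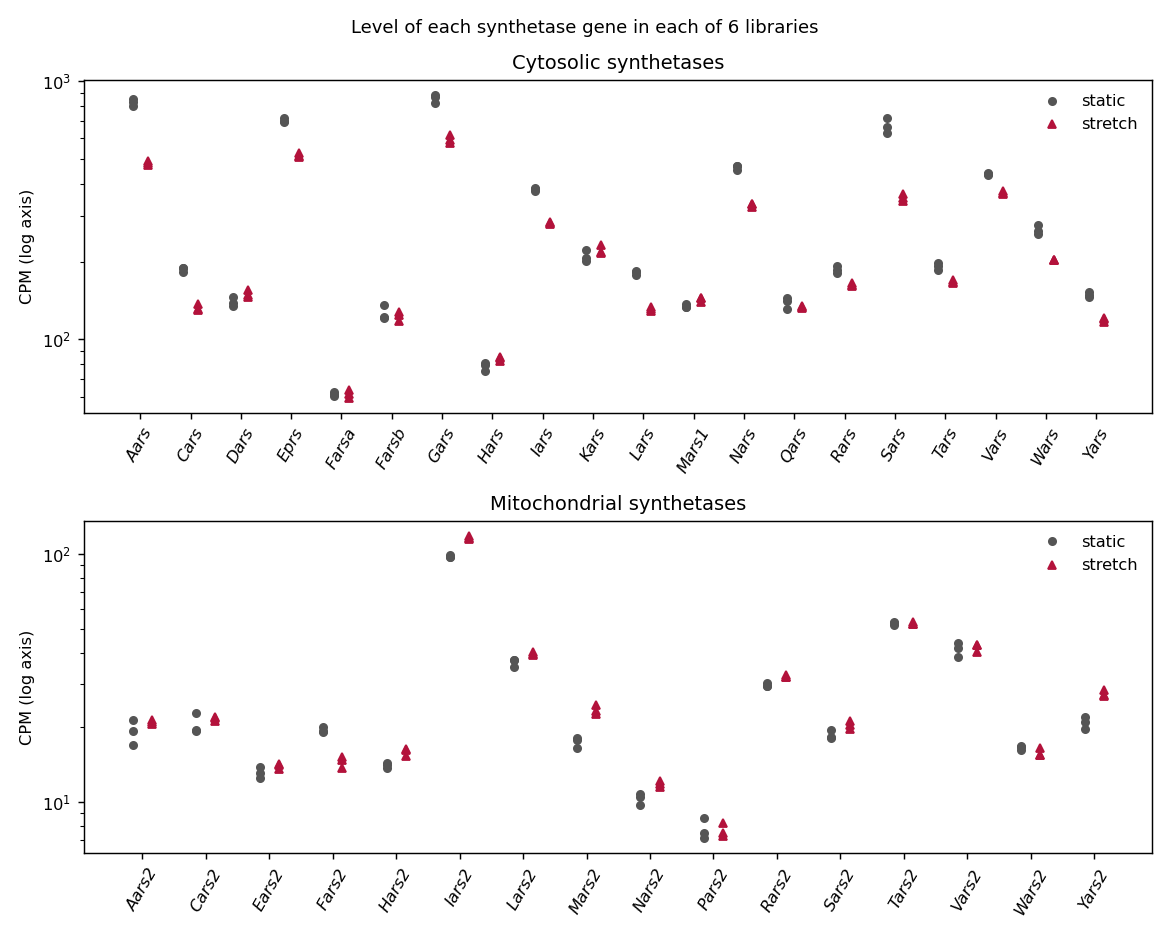
CPM (log axis) of each synthetase gene in 3 static (grey circles) and 3 stretched (red triangles) libraries, genes in alphabetical order; heights of different genes are not comparable, since CPM is not divided by length. Sars falls from 631 to 723 CPM in static libraries to 342 to 367 CPM in stretched ones, while Mars2 rises from 16.5 to 18.2 CPM to 22.6 to 24.5 CPM.

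The other 7 cytosolic genes that fell did so by less. Eprs, a single gene whose protein charges both glutamate and proline tRNAs, fell from 706 ± 13.0 to 516 ± 8.73 CPM (log2 -0.45). Iars, Wars and Yars, the isoleucyl, tryptophanyl and tyrosyl enzymes, had log2 fold changes of -0.44, -0.38 and -0.32, and Vars, Tars and Rars, the valyl, threonyl and arginyl enzymes, of -0.24, -0.21 and -0.19. Rars had the highest adjusted p of the 13 genes, 0.000449. None of the 13 overlapped between groups, but they were picked by a low p, so this adds little. Of all 20 cytosolic members 15 did not overlap, and of the 16 mitochondrial members 9, against 58.5% of all tested genes. Tested against a change of at least 1.2-fold (glmTreat in edgeR), 9 of the 13 stayed called; Rars, Tars, Vars and Yars did not.

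Of the remaining cytosolic genes 5 were not called. Farsa and Farsb encode the subunits of the phenylalanyl enzyme, and Qars the glutaminyl enzyme, which has no mitochondrial counterpart among the members. Farsa was at 61.4, 60.3 and 62.7 CPM in static and 59.5, 61.4 and 63.4 CPM in stretched libraries (log2 -0.01, SE 0.041). Farsb was at 122, 136 and 121 CPM against 118, 124 and 127 CPM (log2 -0.04, SE 0.048), and Qars at 141, 145 and 131 CPM against 132, 133 and 135 CPM (log2 -0.06, SE 0.041). Static and stretched values overlapped in all 3 genes. Dars, the aspartyl enzyme, had a log2 fold change of 0.10 (adjusted p = 0.0535) and Kars, the lysyl enzyme that also serves mitochondria, of 0.08 (adjusted p = 0.121). Of 18 settings tried, Dars was called higher in 5 and Kars in 3. Both were called without static replicate 2 (adjusted p = 0.00711 and 0.00914) and with scaling by library size alone (0.00349 and 0.0070). With an offset for GC content and transcript length, Kars was called (0.0415), while Dars stood at -0.02 on the log2 scale and was not. Qars was called lower in 1 setting, without static replicate 3 (adjusted p = 0.0328).

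Hars and Mars1, the histidyl and methionyl enzymes, were the 2 cytosolic genes called higher. Hars was at 81.1, 79.4 and 75.5 CPM in static and 85.5, 84.5 and 82.7 CPM in stretched libraries (log2 0.10, SE 0.039, adjusted p = 0.0435). Mars1 was at 134, 137 and 133 CPM against 140.1, 145 and 144 CPM (log2 0.09, SE 0.035, adjusted p = 0.0492). The groups were separate but close, and neither call held in DESeq2 (adjusted p = 0.125 and 0.105). Leaving out static replicate 3, or any 1 stretched library, also ended both calls, and leaving out static replicate 1 ended that of Mars1. One end of the Mars1 span shares 71 bases with Ddit3, the gene of the ATF4 partner CHOP, which fell from 92.6 ± 7.44 to 39.6 ± 1.27 CPM.

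Within the cytosolic enzymes, members of the multisynthetase complex, in which several synthetases are held together by scaffold proteins, were compared with the free ones. Of the 8 complex enzymes 4 fell (Eprs, Iars, Lars and Rars), 1 was higher (Mars1) and 3 were not called (Dars, Kars and Qars), with a median log2 fold change of -0.12. Of the 12 free enzymes 9 fell, 1 was higher and 2 were not called, with a median of -0.35. The background is 25.9% lower and 24.9% higher over all tested genes, and the difference between complex and free enzymes was not tested. Of the 3 scaffold genes, Eef1e1 rose from 39.8 ± 1.46 to 47.4 ± 0.628 CPM (log2 0.25, adjusted p = 0.000298), and Aimp1 and Aimp2 were not called, with log2 fold changes of -0.00 and 0.10.

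By structural class, 7 of the 9 class I enzymes fell, 1 was higher (Mars1) and 1 was not called (Qars), with a median log2 fold change of -0.32. Of the 10 class II enzymes 5 fell (Aars, Gars, Nars, Sars and Tars), 1 was higher (Hars) and 4 were not called, with a median of -0.12. Sars and Aars, with the largest falls, are both class II, so the class with fewer falls also held the deepest ones. Eprs joins an enzyme of each class and was counted in neither. Over all tested genes 25.9% were lower and 24.9% higher, and the classes were not tested against each other.

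The mitochondrial genes were at lower levels and moved less. Levels were divided by transcript length. The transcript was the longest coding one with a RefSeq mRNA record, or the longest coding one if none had a record. Static levels ran from 1.55 (Mars2) to 17.9 (Iars2) CPM per kilobase in the mitochondrial genes and from 33.7 (Farsa) to 361 (Gars) in the cytosolic ones. Stretched levels, on the same scale, ran from 2.08 to 21.3 and from 33.0 to 251, so the 2 groups of genes did not overlap in either condition. Which transcript of each gene was expressed is not known, so single values per kilobase are approximate. The length used for Mars2, 11294 bases, is longer than its RefSeq gene span (55237177 to 55240058), so its values may be too low. The next lowest gene was Pars2, at 2.53 in static and 2.51 in stretched cells.

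Mars2, Yars2 and Iars2, the mitochondrial methionyl, tyrosyl and isoleucyl enzymes, had the largest rises with the settings used here. With an offset for GC content and transcript length, added after the data were seen, Mars2 moved to 0.20 on the log2 scale, Iars2 to 0.21 and Yars2 to 0.44, so that Sars2 and Aars2 (both 0.25) stood above Mars2 and Iars2. That offset took Mars2 as 11294 bases long, which is more than its gene span, so the shift of Mars2 and its rank are uncertain. Mars2 (Entrez Gene 212679; chromosome 1, 55237177 to 55240058) was at 17.8, 16.5 and 18.2 CPM in static and 24.5, 23.3 and 22.6 CPM in stretched libraries, 1.34-fold higher (log2 0.42, SE 0.062, adjusted p = 4.62e-05). Yars2 was at 20.9, 19.6 and 22.0 CPM against 26.9, 28.3 and 26.7 CPM (log2 0.38, SE 0.058, adjusted p = 7.95e-05). Iars2, at 97.2, 97.4 and 99.3 CPM against 117, 119 and 115 CPM, stood at 0.25 on the log2 scale (SE 0.036, adjusted p = 3.58e-05). In all 3 genes each stretched library was above each static one. Hars2 and Rars2, the histidyl and arginyl enzymes, were also called higher, by 0.19 (adjusted p = 0.0270) and 0.12 (adjusted p = 0.0464) on the log2 scale. Neither held in DESeq2 (adjusted p = 0.127 and 0.184), and against 1.2-fold only Mars2 of the 5 stayed called. Leaving out any 1 of the 6 libraries ended the call of Rars2 (adjusted p 0.0703 to 0.111), and leaving out static replicate 2 or 3 or stretched replicate 1 or 2 ended that of Hars2 (0.0504 to 0.0946).

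Fars2, the mitochondrial phenylalanyl enzyme, went the other way. It was at 20.1, 19.3 and 19.2 CPM in static and 13.6, 14.7 and 15.1 CPM in stretched libraries, 1.36-fold lower (log2 -0.44, SE 0.065, adjusted p = 5.35e-05). The groups did not overlap, and the call held against 1.2-fold and under every setting tried. The next lowest were Wars2, at 16.6, 16.2 and 16.7 CPM against 15.4, 16.4 and 15.5 CPM (log2 -0.07, adjusted p = 0.369), and Pars2, at 8.56, 7.45 and 7.11 CPM against 7.47, 8.20 and 7.24 CPM (log2 -0.02, adjusted p = 0.905). Both overlapped between groups. The other 8 uncalled genes, Aars2, Cars2, Ears2, Lars2, Nars2, Sars2, Tars2 and Vars2, had log2 fold changes of -0.00 to 0.19. Of these, Lars2, Nars2 and Sars2 did not overlap between groups, as was so for 58.5% of all tested genes. Their adjusted p values were 0.0634, 0.0554 and 0.0865. Each passed the threshold when 1 static library was left out: Lars2 without replicate 2 (0.0462), and Nars2 and Sars2 without replicate 3 (0.0418 and 0.0451), as did Cars2 without replicate 3 (0.0458) and Aars2 without replicate 1 (0.0482).

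Set side by side for each amino acid, the cytosolic gene had the more negative fold change in 15 of 17 pairs. The pairs share genes, since Eprs stands against both Ears2 and Pars2 and Fars2 against both Farsa and Farsb. The ratio of the cytosolic to the mitochondrial level in each library was lower in all stretched libraries than in all static ones in 14 pairs and higher in 2. With 3 samples per group the smallest p of an exact permutation test is 0.1, and the pairs are described without a test. The share of single genes without overlap, in either direction, was 58.5%. That share is not a like measure, and none was computed for ratios of 2 genes.

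For serine the log2 ratio of Sars to Sars2 levels per kilobase went from 4.24 ± 0.152 to 3.18 ± 0.0595, and for alanine that of Aars to Aars2 from 4.65 ± 0.194 to 3.74 ± 0.0249 (SD, n = 3 per group). In both pairs most of the shift came with the cytosolic gene, as Sars2 and Aars2 had log2 fold changes of 0.13 and 0.11. For tyrosine the shift of -0.71 in the log2 ratio was shared by both genes, with Yars at -0.32 and Yars2 at 0.38. For isoleucine Iars stood at -0.44 and Iars2 at 0.25, both called, and the log2 ratio moved by -0.69. For methionine neither gene fell, with Mars1 at 0.09 and Mars2 at 0.42.

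Phenylalanine was the amino acid with the reverse order. The log2 ratio of Farsa to Fars2 levels per kilobase was 1.83, 1.86 and 1.93 in static and 2.35, 2.28 and 2.29 in stretched libraries, and that of Farsb to Fars2 rose by 0.40. Here the mitochondrial gene was the one called lower. The only other pair in which the ratio was not lower in every stretched library was that of Hars and Hars2, whose spans meet and share 4 bases and whose log2 fold changes were 0.10 and 0.19. Across the 17 pairs the fold changes of the cytosolic and the mitochondrial genes had a Pearson correlation of -0.20, and the values share the same 6 libraries.

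**Figure D4:**
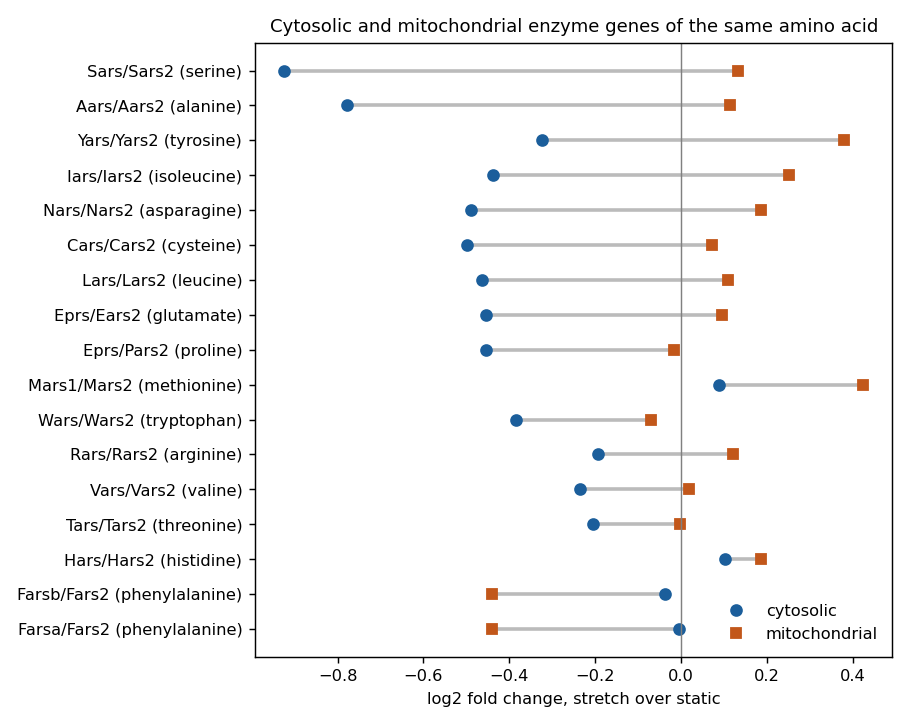
Log2 fold change (stretch over static, horizontal axis) of the cytosolic (blue circle) and mitochondrial (orange square) gene of each amino acid, joined by a line, in 17 pairs. The cytosolic gene lies to the left in 15 pairs, and the 2 phenylalanine pairs show the opposite order.

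Genes that handle tRNA before and after charging were read in the same fit. Xpot, the exporter that carries tRNA out of the nucleus, fell from 338 ± 4.67 to 221 ± 6.90 CPM (log2 -0.61, adjusted p = 5.28e-09). Of the 14 cytosolic partners 3 fell, 3 rose and 8 were not called, shares no larger than the 25.9% lower and 24.9% higher over all tested genes. Tarsl2, a second cytosolic threonyl enzyme, was at the low levels of 2.02, 2.02 and 2.18 CPM in static and 3.55, 3.67 and 3.55 CPM in stretched libraries, from 38 to 132 counts, and rose by 0.78 on the log2 scale (adjusted p = 0.000216). Of 7 genes that sense uncharged tRNA or carry the signal to initiation factor eIF2, none fell and 3 rose, against 25.9% lower and 24.9% higher over all tested genes. The lowest p among them were those of Eif2s3x, an eIF2 subunit (log2 0.17), and Impact, which restrains the sensor kinase (log2 0.19), while the kinase gene itself, Eif2ak4, stood at 0.05 (adjusted p = 0.466).

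On the mitochondrial side, Qrsl1, a subunit of the enzyme that makes glutaminyl-tRNA in mitochondria, rose from 19.2 ± 0.744 to 23.5 ± 0.566 CPM (log2 0.30, adjusted p = 0.000599). The genes of the other subunits, Gatb and Gatc, were not called, with log2 fold changes of -0.11 and 0.05. Of 10 mitochondrial translation factors 1 fell and 4 rose (median log2 fold change 0.15), and the lowest p were those of the elongation factor genes Gfm1 (0.36) and Guf1 (0.29). Of 12 genes of mitochondrial tRNA maturation 1 fell and 4 rose (median 0.10). Both lists stand against 24.9% higher and 25.9% lower over all tested genes. Elac2, which trims the 3′ end of tRNAs, rose by 0.27 and Trmt5, a tRNA methyltransferase, by 0.29.

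The list of 35 other ATF4 response genes was drawn up with earlier results of these data known, so its direction is not independent evidence. All 33 that could be tested were called lower, against 25.9% of all tested genes. Their median log2 fold change was -0.84, against -0.28 for the cytosolic synthetases and 0.0038 for all tested genes. Atf4 itself fell from 599.8 ± 20.1 to 357 ± 4.53 CPM (log2 -0.75). The lowest p were those of Atf5 (log2 -2.20) and Trib3 (log2 -2.17). Values of the 13 lower synthetases, -0.92 to -0.19, overlapped the upper end of that list, which ran from -2.20 to -0.33. Vldlr was too low to be tested, and Stc2 had no row in the table.

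Scaled by library size alone, the median of all genes moved to 0.064 and the share of higher genes among all calls was 63.2% against 49.0%, and 4 cytosolic and 8 mitochondrial members were then called higher. With an offset per library for GC content and transcript length, added after the data were seen, 9 mitochondrial members were called higher, among them Aars2 (log2 0.25, adjusted p = 0.00719) and Sars2 (log2 0.25, adjusted p = 0.00254), and Rars2 lost its call (adjusted p = 0.538). The 13 cytosolic falls and the fall of Fars2 were called in both, but with the GC and length offset Vars moved from -0.24 to -0.09 on the log2 scale, with an adjusted p of 0.0486.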

How the data were processed

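RNA was sequenced from 3 static and 3 stretched samples of B16F10luc2 cells, grouped by the sample titles. The values deposited by the authors are estimated counts, whole and unscaled, 1 row per gene. Salmon 1.4.0 is named in the submitters' processing notes, beside mm10 and GRCm38 as builds. Its index, the step from transcripts to genes and the use of strand are not stated. Salmon shares ambiguous reads between transcripts, which makes overlapping genes less certain.

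Entrez Gene numbers were named with RefSeq GRCm38.p6, which matched 14875 of 14883. The filter filterByExpr (minimum count 10) of edgeR 4.0.16, under R 4.3.3, left 12377 genes. Libraries of 19469286 to 36351400 counts were scaled by TMM (factors 0.966 to 1.02) and fitted with the group alone by the quasi-likelihood method (two-sided, Benjamini-Hochberg over all tested genes, threshold 0.05). Lengths came from GENCODE M21. On simulated counts for this comparison (12299 genes) 64% of genes changed 1.2-fold and 90% of those changed 1.5-fold were recovered.

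The members and lists were chosen with earlier results of these data known. Values in every sample are given for the 6 largest cytosolic falls, called rises, the 3 smallest cytosolic changes, and the 3 highest and 3 lowest mitochondrial changes; of other genes, the 2 called members of lowest p in each list are named, with a few chosen after their values were seen, and 1 gene is not reported here. Alternatives were other scalings, filters and tools (DESeq2 1.42.0, limma-voom 3.58.1), glmTreat, a replicate block, thinning to 19469286 counts and leaving out each library.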

Additional observations from a re-analysis of the deposited data

How the results depend on the processing

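The same 13 cytosolic genes were called lower in every setting except glmTreat against 1.2-fold, where 9 of them were; without static replicate 3 Qars was called lower as well (14 in all). Fars2 was called lower in all settings. Cytosolic genes called higher, 2 with the settings of the report, numbered 1 with RLE scaling, 4 with library size only and 1 after thinning. There were 3 with upper quartile scaling, a filter of at least 5 CPM in 3 libraries, limma-voom, or the GC and length offset. There were 0 without a count filter, with DESeq2, with glmTreat or with the replicate block, and 0 to 4 when 1 library was left out. Mitochondrial genes called higher, 5 in the report, numbered 8 with library size only, 3 with DESeq2 and 1 with glmTreat. There were 9 with the GC and length offset, 7 with upper quartile scaling or the 5 CPM filter, and 4 without a count filter or after thinning. Leaving out 1 library gave 3 to 6. With glmTreat 9 cytosolic and 2 mitochondrial members were called in all, against 1592 genes (913 lower, 679 higher) of 6298, and with the GC and length offset 10 mitochondrial members were called. The median log2 fold change moved to -0.2182 (cytosolic) and 0.1718 (mitochondrial) with library size only and to 0.1525 (mitochondrial) with the GC and length offset. Same-numbered libraries did not deviate together (correlations -0.012, 0.005 and -0.077), and 1 of 6 correlated best with its own number; the replicate block called 5967 genes, 13 cytosolic members lower and 4 mitochondrial members higher. At 1.2-fold the simulation missed 36% of changes.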

Other observations

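Among the 20 cytosolic genes, those with the highest static level per kilobase tended to have the most negative log2 fold change (Spearman correlation -0.63), and among the 16 mitochondrial genes no such order was seen (0.068). The static level enters both quantities, so the correlation is a description only. The mitochondrial value also rests on the length used for Mars2, which is longer than its gene span. Gars, Sars, Nars, Eprs and Aars had the 5 highest static levels and all fell. The range of cytosolic levels, highest over lowest, narrowed from 10.7-fold in static to 7.60-fold in stretched cells.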
